A study of Mus musculus with 17 samples.

Results

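Matrix metalloproteinases (MMPs) and their tissue inhibitors (TIMPs) were followed in cultured mouse ovarian follicles with and without an inhibitor of the EGF receptor. The group was 9 genes taken by symbol out of the 25198 rows of the count table. It held 6 proteases (Mmp2, Mmp9, Mmp11, Mmp14, Mmp15 and Mmp19) and 3 inhibitors (Timp1, Timp2 and Timp3), and all 9 were found. Timp1 was the member that fell over all libraries. Its level was 4.14-fold lower in the inhibitor libraries than in Control libraries. None of the 4 proteases tested passed the edgeR test, with Mmp19 just short of it (adjusted p = 0.058). Mmp9 and Mmp15 were not tested. Timp1 was the 1 member called of 7 tested, beside 10.6% of all genes tested.

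Per the labels, antral follicles of 16-day-old CD1 mice had grown for 8 days in eIVFG, a culture in which each follicle grows encapsulated. The labels describe samples of triplicate follicles treated for 4 h with hCG, a gonadotropin that starts ovulation, and with 10 µM Tyrphostin-AG1478, an inhibitor of the EGF receptor kinase, dissolved in DMSO. There were 11 Control and 6 Tyrphostin libraries in 2 batches, as the labels call them. Batch 1 comprised Control 1 to 6 and Tyrphostin 1 to 3, and batch 2 comprised Control 7 to 11 and Tyrphostin 4 to 6. The treatment text is the same for every sample, so it does not say whether Control follicles received hCG or DMSO, and both groups otherwise share strain, age and culture. The labels give no genotype or transgene. Control library names fall into 5 sets, and nothing states that libraries came from separate animals or cultures, so p-values measure only the spread between libraries, which may be technical.

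MMPs are zinc-dependent enzymes that cut collagens and other proteins of the extracellular matrix. Most are made as inactive precursors, which other proteases activate by cutting off a prodomain, and TIMPs then block the active site. In the ovary this system is known for the remodelling of the follicle wall around ovulation. The luteinising signal reaches granulosa cells partly through EGF-like ligands and the EGF receptor, and it raises Timp1 in several mammals.

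Libraries held 1820545 (Control 6) to 8291024 counts (Control 8). Values are given in CPM, counts scaled to a common library total, and 1 count was worth 0.112 to 0.547 CPM. The granulosa cell markers Inha, the inhibin alpha subunit, and Inhba were abundant, at 33998 to 52659 and 17596 to 28600 CPM. Cyp19a1 was at 60.0 to 285 CPM in Control and 536 to 947 CPM in Tyrphostin libraries, and Nr5a1 at 39.6 to 73.6 CPM. Of 6 granulosa markers tested, Cyp19a1 (log2 fold change 2.35, edgeR adjusted p = 2.84e-07) and Fshr (0.83, 0.0344) were called higher with Tyrphostin. That is 2 of 6, beside 4.35% of all genes tested, and 0 were called lower. Estimates were above 0 for 3 and below 0 for 3. Of the other granulosa markers, Fshr reached 21.6 CPM and Amhr2 18.8 CPM. Foxl2 was at 0 in 3 libraries and reached 4.66 CPM, and Amh was at 0 in 12 libraries and reached 1.08 CPM. The summed level of 9 theca and stroma markers was 269 to 2165 CPM in Control and 275 to 3090 CPM in Tyrphostin libraries, and it was highest in Tyrphostin 5, Control 7 and Control 8. The summed level of 6 immune markers was also highest in those 3 libraries, at 860, 302 and 463 CPM.

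The TIMPs are introduced here with their promoters, because 1 of them, Timp1, passed the test over all libraries. Each sequence is 300 bases of RefSeq (GRCm38.p6), from 250 bases before to 50 after the gene's start, 5′ to 3′ on the gene's own strand. Capitals mark matches on either strand to AP-1 (TGANTCA), to the AP-1 variant known from Timp1 (TGAGTAA), to the ETS family core AGGAAG, or to the cyclic AMP response element (TGACGTCA). Timp1 is at chrX:20869916-20870215 on the plus strand, Timp2 at chr11:118355362-118355661 on the minus strand and Timp3 at chr10:86300162-86300461 on the plus strand.
Timp1: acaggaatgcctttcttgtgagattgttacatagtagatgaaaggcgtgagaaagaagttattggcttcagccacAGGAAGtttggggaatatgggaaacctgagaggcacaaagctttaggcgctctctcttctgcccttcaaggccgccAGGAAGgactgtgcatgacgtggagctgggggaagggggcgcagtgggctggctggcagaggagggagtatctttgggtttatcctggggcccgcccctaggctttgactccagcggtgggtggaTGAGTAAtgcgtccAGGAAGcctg
Timp2: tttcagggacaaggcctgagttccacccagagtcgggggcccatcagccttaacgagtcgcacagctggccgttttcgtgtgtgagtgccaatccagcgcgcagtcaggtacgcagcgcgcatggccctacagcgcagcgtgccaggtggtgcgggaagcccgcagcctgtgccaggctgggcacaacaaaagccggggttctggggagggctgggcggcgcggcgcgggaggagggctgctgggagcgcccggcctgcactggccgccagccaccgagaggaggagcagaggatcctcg
Timp3: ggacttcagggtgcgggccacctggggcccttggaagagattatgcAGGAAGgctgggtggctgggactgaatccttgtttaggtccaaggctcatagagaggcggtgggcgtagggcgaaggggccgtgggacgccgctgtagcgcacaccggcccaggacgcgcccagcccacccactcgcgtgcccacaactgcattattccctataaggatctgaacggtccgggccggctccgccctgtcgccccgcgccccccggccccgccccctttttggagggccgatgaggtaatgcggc

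The Timp1 promoter held TGAGTAA 27 bases and AGGAAG 41 bases into the transcribed part, with further AGGAAG matches at -175 and -99. Timp3 held a single AGGAAG at -204, and Timp2 held none of these motifs. Over 32851 mouse promoters of the same length, TGAGTAA was found in 2.68% and AGGAAG in 35.35%. TGAGTAA was searched because it is known from Timp1, so its presence there was fixed by the choice of motif. Promoter sequences were at hand for 6 members (Timp1, Timp2, Timp3, Mmp11, Mmp14 and Mmp15). None of these 6 held TGANTCA, found in 7.81% of promoters, or TGACGTCA, found in 1.79%. A match is a stretch of letters and was not tested as a binding site.

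Timp1 (GRCm38 chrX:20870166-20874735, plus strand) encodes a secreted inhibitor of most soluble MMPs and a weak inhibitor of Mmp14. In batch 1 its level was 58.9 CPM at the lowest, 102 at the median and 234 at the highest of 6 Control libraries, against 43.9, 39.6 and 17.2 CPM in Tyrphostin 1 to 3. The groups of batch 1 did not overlap. In batch 2 Control 7 to 11 had 409, 301, 227, 180 and 74.1 CPM, against 51.0, 73.3 and 29.7 CPM in Tyrphostin 4 to 6. The groups again did not overlap, but Control 11 and Tyrphostin 5 nearly touched. The order within batch 2 was seen for 5.08% of the 9603 genes tested, and that in both batches for 212 of them (2.21%). Scaled by total counts instead, the groups of batch 2 overlapped for Timp1.

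Over all libraries the mean Timp1 level was 177 ± 111 CPM (SD, n = 11) without and 42.5 ± 19.2 CPM (SD, n = 6) with the inhibitor. The log2 fold change with batch as a term was -2.05 ± 0.38 (SE; edgeR's quasi-likelihood test, Benjamini-Hochberg adjusted p = 0.00151; 95% interval -2.80 to -1.30). All 6 Tyrphostin libraries lay below the Control median, and 5 of 6 lay below every Control library. In such bulk samples, fewer cells of a type and less RNA per cell cannot be told apart. Timp1 was the only member called, 1 of the 7 tested, where 10.6% of all genes tested were called, 6.25% lower and 4.35% higher.

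Within batch 1, the fall of Timp1 was -1.90 ± 0.49 on the log2 scale (SE; edgeR adjusted p = 0.034), and within batch 2 the estimate was -2.21 ± 0.51 (edgeR adjusted p = 0.0804). Batch 2 alone called 0.621% of its genes (0.427% lower and 0.193% higher), and batch 1 called 6.73%. The difference of the Timp1 effects between batches was -0.32 ± 0.72 (log2, batch 2 minus batch 1, SE; edgeR adjusted p = 1.00, 95% interval -1.73 to 1.09). The interaction test called 0 of 9603 genes (0%) at an adjusted p under 0.05 with edgeR, and 342 had an unadjusted p under that value; with no filter on low counts it called 79. The call of Timp1 over all libraries held without each library in turn, with adjusted p up to 0.00511. The call within batch 1 was lost without Control 1, Control 5, Tyrphostin 1, Tyrphostin 2 or Tyrphostin 3 (adjusted p 0.0506, 0.0510, 0.0578, 0.120 and 0.102), and the call in batch 2 was gained without Control 11 (0.0288).

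**Figure D1:**
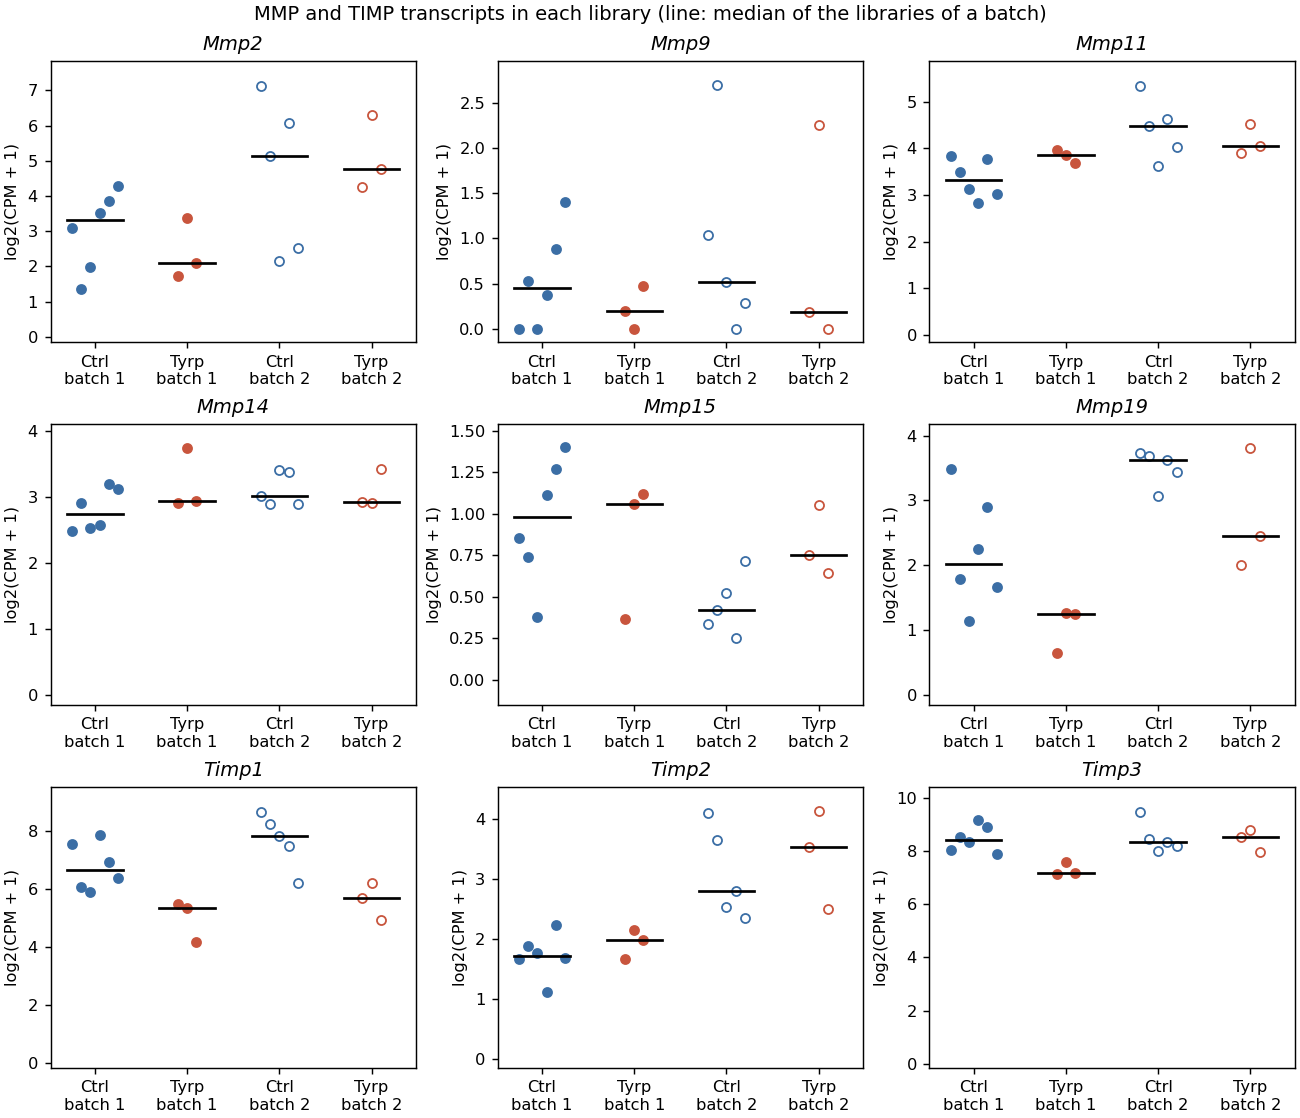
Level of each of the 9 genes as log2(CPM + 1) in every library; each point is 1 library, blue for Control and red for Tyrphostin, filled for batch 1 and open for batch 2, and lines are medians of a batch. Timp1 in Tyrphostin libraries lies under Control in both batches (17.2 to 43.9 against 58.9 to 234 CPM in batch 1), and Timp3 does so in batch 1 only; the axes differ between panels and start just under 0.

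Timp3 (GRCm38 chr10:86300372-86349506, plus strand) encodes the inhibitor that stays bound to the matrix and that also blocks ADAM proteases. In batch 1 its level was 240, 348 and 587 CPM at the lowest, median and highest of the Control libraries, against 142, 195 and 143 CPM in Tyrphostin 1 to 3. All 3 Tyrphostin libraries of batch 1 lay below all 6 Control libraries, an order seen for 6.30% of genes tested. In batch 2, Control 7 to 11 had 722, 351, 260, 325 and 298 CPM and Tyrphostin 4 to 6 had 369, 449 and 251 CPM. These groups overlapped widely.

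Timp3 fell within batch 1 by 1.23 ± 0.29 on the log2 scale (SE; edgeR adjusted p = 0.0144), a 2.35-fold lower level. With Timp1 this made 2 of 7 members called lower in batch 1, where 3.79% of genes were called lower and 2.94% higher. In batch 2 the log2 fold change of Timp3 was -0.13 ± 0.35 (SE; edgeR adjusted p = 0.940), and over all libraries it was -0.67 ± 0.27 (edgeR unadjusted p = 0.0195, adjusted p = 0.118; 95% interval -1.19 to -0.15). The difference between batches was 1.10 ± 0.47 (log2, SE; edgeR unadjusted p = 0.0274, adjusted p = 1.00), so a difference between batches was not shown after adjustment. The call in batch 1 was lost without Tyrphostin 1 (adjusted p = 0.0668) or Tyrphostin 3 (0.0624), and with Control libraries summed by set (0.0515).

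Markers of theca and stroma had a lower median with Tyrphostin in batch 1, with ranges that overlapped. The theca and stroma markers summed to 269, 494 and 766 CPM at the lowest, median and highest of the batch 1 Control libraries and to 275, 332 and 422 CPM in the Tyrphostin libraries. Of these 9 markers, 8 had estimates below 0 in batch 1, and 2, the collagen genes Col1a1 and Col1a2, were called lower (log2 fold changes -1.20 and -1.28; edgeR adjusted p = 0.027 and 0.0442), beside 3.79% of all genes. Cyp17a1, the steroid enzyme that marks theca cells, had an estimate of 1.27 (edgeR unadjusted p = 0.0387, adjusted p = 0.207). None of the 9 was at 0 in any library. Their part in the Timp1 and Timp3 values was not tested. In batch 2, where Timp3 did not pass the test, all 9 markers had estimates above 0 with Tyrphostin, with a median log2 fold change of 0.57, and none was called by edgeR (1 had an unadjusted p under 0.05). The medians of the sum there were 1200 CPM in Control and 1090 CPM in Tyrphostin libraries.

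Timp3 lies inside Syn3, a synapsin gene on the opposite strand, and 1733 of its 8144 exonic bases in GENCODE M21 overlap exons of Syn3. Smart-Seq2 does not mark strand, so reads from these bases cannot be told apart. The counts given to Syn3 were 95.2 ± 33.8 CPM (SD, n = 11) without and 68.4 ± 34.2 CPM (SD, n = 6) with Tyrphostin, and Syn3 was also called lower in batch 1 (log2 fold change -1.10 ± 0.28, SE; edgeR adjusted p = 0.0235). Timp1 lies likewise inside Syn1, but no exonic bases overlap (0 of 888), and Syn1 reached 3.48 CPM at most.

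Timp2 (GRCm38 chr11:118301069-118355740, minus strand) encodes the inhibitor that, held by Mmp14 at the cell surface, takes part in activating the Mmp2 precursor. In batch 1 its level was 1.16, 2.29 and 3.67 CPM at the lowest, median and highest of the Control libraries and 2.15, 3.42 and 2.93 CPM in Tyrphostin 1 to 3. In batch 2 Control 7 to 11 had 16.0, 11.5, 4.78, 5.94 and 4.06 CPM and Tyrphostin 4 to 6 had 10.6, 16.4 and 4.66 CPM. Control and Tyrphostin libraries overlapped in each batch, and the batches stood apart. The log2 fold change with Tyrphostin was 0.26 ± 0.31 (SE; edgeR adjusted p = 0.671), with a 95% interval of -0.35 to 0.88.

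Levels of different genes are compared per kilobase of the main transcript. Among Control libraries, Timp1 was highest (200 ± 126 CPM per kb, SD, n = 11), followed by Timp3 (81.3 ± 32.2). In Tyrphostin libraries the order of the means turned, with Timp3 at 54.7 ± 26.7 and Timp1 at 48.1 ± 21.7 CPM per kb (SD, n = 6). The medians there were alike, at 47.3 CPM per kb for each. Timp1 exceeded Timp3 per kb in 9 of 11 Control libraries, and Timp3 exceeded Timp1 in 4 of 6 Tyrphostin libraries. Below them in Control, the mean levels were 8.90 CPM per kb for Mmp2, 6.69 for Mmp11, 2.64 for Mmp14, 2.11 for Mmp19, 1.39 for Timp2, 0.298 for Mmp9 and 0.139 for Mmp15. Among these neighbours, Mmp2 exceeded Mmp11 in 5 of 11 Control libraries, Mmp14 exceeded Mmp19 in 7, Mmp19 exceeded Timp2 in 8 and Mmp9 exceeded Mmp15 in 5, so none of these 4 orders held in every library. Timp3 exceeded Mmp2, Mmp11 exceeded Mmp14 and Timp2 exceeded Mmp9 in all 11.

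As a description of the balance per kb, Timp1 made up 66.9% ± 12.5 (SD, n = 11) of the summed TIMP transcripts without and 46.2% ± 9.14 (SD, n = 6) with Tyrphostin. The ranges overlapped, at 48.9% to 82.0% and 38.1% to 61.8%. Timp2 was a small part of the sum, at 0.475% and 1.54%. The summed TIMP level was 283 ± 149 CPM per kb in Control and 105 ± 47.6 in Tyrphostin libraries, and that of the 6 MMPs was 20.8 ± 18.5 and 18.7 ± 12.3. No test was made on these sums, and transcript levels do not measure protease activity.

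**Figure D2:**
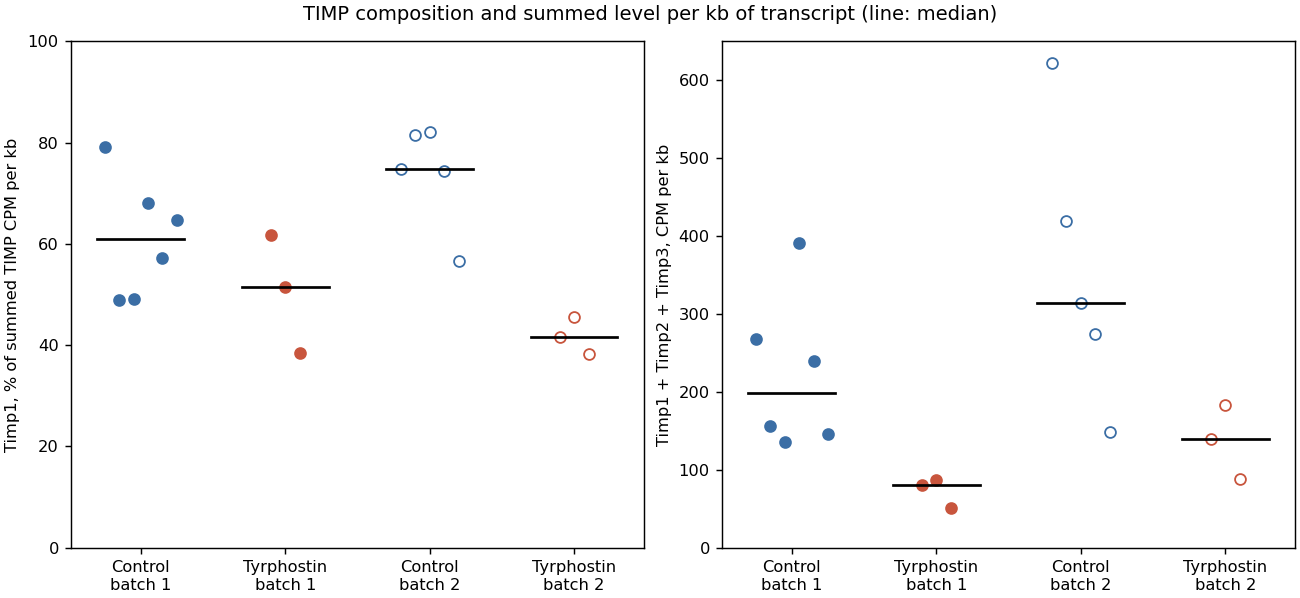
Share of Timp1 in the summed TIMP level (left, percent) and the summed level of Timp1, Timp2 and Timp3 (right, CPM per kb of transcript) in each library, by group and batch; points are libraries and lines are medians. Timp1 shares run from 48.9% to 82.0% in Control and from 38.1% to 61.8% in Tyrphostin libraries.

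Mmp2 (GRCm38 chr8:92827291-92853420, plus strand) encodes a gelatinase, which cuts denatured collagen and the collagen of basement membranes. In batch 1 its level was 1.56, 8.99 and 18.6 CPM at the lowest, median and highest of the Control libraries and 2.30, 9.32 and 3.32 CPM in Tyrphostin 1 to 3. In batch 2 it was 138, 33.8, 3.47, 66.5 and 4.70 CPM in Control 7 to 11 and 18.3, 77.6 and 26.5 CPM in Tyrphostin 4 to 6. The levels differed 39.7-fold among batch 2 Control libraries alone. Its log2 fold change was -0.52 ± 0.70 (SE; edgeR adjusted p = 0.723), and the 95% interval of -1.89 to 0.86 leaves the direction unknown. Mmp2 had a biological coefficient of variation of 89.4%, above that of 99.6% of the 9603 genes tested.

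Mmp9 (GRCm38 chr2:164940780-164955850, plus strand), which encodes the other gelatinase, did not pass the filter on low counts. It was at 0 in 5 of 17 libraries, where a count of 0 allows up to 0.466 to 0.897 CPM, and above 2 CPM in Control 8 (5.49 CPM, 49 counts) and Tyrphostin 5 (3.77 CPM, 14 counts) alone. In the other libraries it was between 0 and 1.64 CPM. Control 8 and Tyrphostin 5 also had the highest immune marker sums, and Lyz2, a lysozyme of myeloid cells, made up 819 of the 860 CPM in Tyrphostin 5. Ptprc, the pan-leukocyte marker, was at 0 in 5 libraries and highest in Tyrphostin 5, at 2.70 CPM. The part of those cells in the Mmp9 values was not tested.

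Mmp14 (GRCm38 chr14:54431612-54445364, plus strand) encodes a membrane-bound collagenase, also called MT1-MMP, that activates the Mmp2 precursor. It was among the evenest of the 9 genes, at 4.58 to 9.56 CPM in Control and 6.46 to 12.3 CPM in Tyrphostin libraries. The log2 fold change of Mmp14 was 0.24 ± 0.21 (SE; edgeR adjusted p = 0.545; 95% interval -0.18 to 0.67). Its coefficient of variation between libraries was 25.7%, the lowest of the 7 members tested and below the median gene's 29.9%. Mmp15 (GRCm38 chr8:95352268-95375080, plus strand), also membrane-bound and its closest relative among the members with 71.4% identical coding bases, had 1 to 7 counts per library and was not tested.

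Mmp11 (GRCm38 chr10:75923222-75936496, minus strand) encodes stromelysin-3, which is activated inside the cell by furin. Its level was 6.09, 9.00 and 13.2 CPM at the lowest, median and highest of the batch 1 Control libraries and 14.6, 13.5 and 11.9 CPM in Tyrphostin 1 to 3. In batch 2 it was 39.4, 21.4, 11.3, 23.8 and 15.4 CPM in Control 7 to 11 and 14.0, 21.8 and 15.5 CPM in Tyrphostin 4 to 6. The groups overlapped in each batch, but scaled by total counts Tyrphostin 1 to 3 lay above every Control library of batch 1. How common that order is among genes under this scaling was not counted. Batch 1 estimates were higher in general with total counts, centred on 0.179 (log2) in place of 0.0189 over 9423 genes. Of these genes 459 were called higher and 264 lower, against 277 and 357 in the main fit. The main estimates of Mmp11 had opposite signs in the batches, 0.48 ± 0.28 in batch 1 and -0.39 ± 0.36 in batch 2 (log2, SE, edgeR adjusted p = 0.364 and 0.794). Over all libraries its log2 fold change was 0.05 ± 0.24 (edgeR adjusted p = 0.930). The difference between batches did not pass (-0.87 ± 0.46, SE; edgeR unadjusted p = 0.0737, adjusted p = 1.00).

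Mmp19 (GRCm38 chr10:128790910-128800824, plus strand) encodes a secreted protease that is known to rise in ovulating mouse follicles. Its level was 1.20, 3.11 and 10.2 CPM at the lowest, median and highest of the batch 1 Control libraries and 0.574, 1.40 and 1.37 CPM in Tyrphostin 1 to 3. In batch 2 it was 12.3, 11.9, 7.38, 11.3 and 9.82 CPM in Control 7 to 11 and 3.02, 12.9 and 4.48 CPM in Tyrphostin 4 to 6. Tyrphostin 5 lay above every Control library, and the other 2 Tyrphostin libraries of batch 2 lay below every Control library of that batch. The log2 fold change was -1.21 ± 0.40 (SE; edgeR unadjusted p = 0.00665, adjusted p = 0.058), short of the threshold of 0.05.

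Over all libraries, the Mmp19 call turned on single libraries and on the tool. Without Tyrphostin 5 the log2 fold change was -1.73 (edgeR adjusted p = 0.00488), and without Control 3 it was -1.28 (0.0409). Without Tyrphostin 5, Control 7 and Control 8 together, an alternative chosen after seeing the data, it was -1.69 (edgeR adjusted p = 0.0086). DESeq2 gave an adjusted p of 0.0193 and limma-voom 0.022. Over all alternatives with every library, the adjusted p ran from 0.0193 to 0.647. In GENCODE M21, 789 exonic bases of Mmp19 overlap Tmem198b and 212 overlap Gm47093, both on the opposite strand. Likewise, 155 of 2778 exonic bases of Mmp11 overlap Chchd10, and 118 of 9178 of Furin overlap Gm44851, each on the opposite strand.

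**Figure D3:**
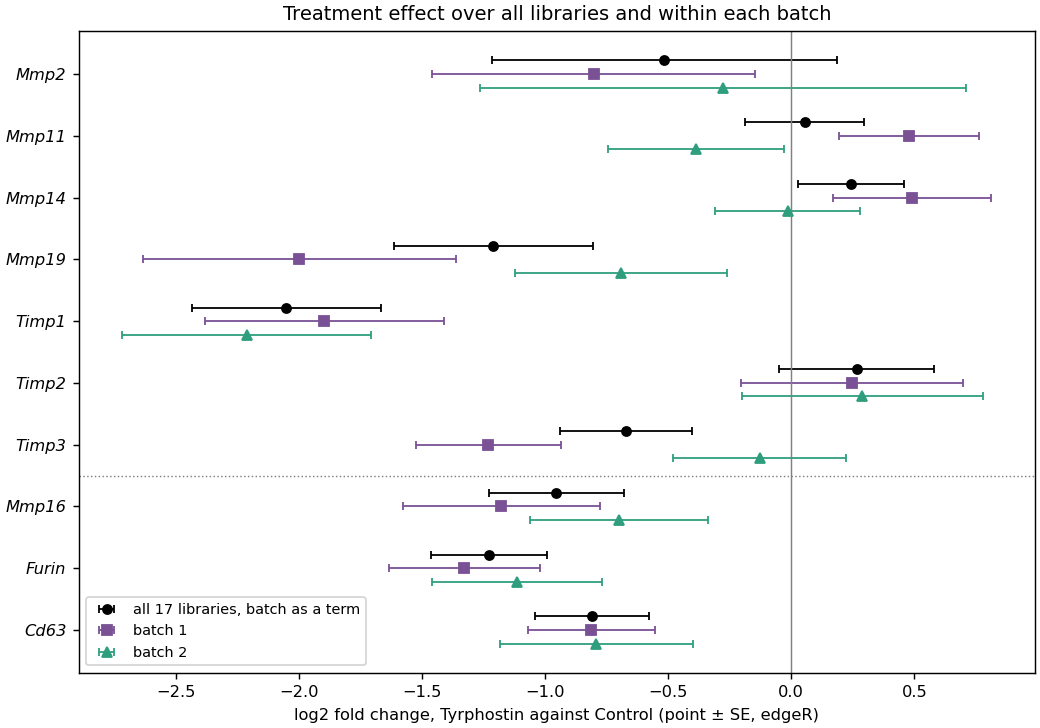
Log2 fold change of Tyrphostin against Control (x axis, point ± SE, edgeR) for the 7 members tested and, under the dotted line, the 3 partner genes called; black circles are all libraries with batch as a term, purple squares batch 1 and green triangles batch 2. Timp1 lies near -2 in each (-1.90 and -2.21), while Timp3 is at -1.23 in batch 1 and -0.13 in batch 2.

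As a group, the log2 fold changes of the 7 members tested had a median of -0.52 across the whole series, against 0.00 for all genes tested. The estimates of 4 were below 0 and those of 3 above it. Within batch 1 the median was -0.80, with 2 members called, and within batch 2 it was -0.28, with 0 members called by edgeR. In each of these fits the median was the estimate of Mmp2, whose direction is unknown, so it does not show a fall of the group. Over all libraries the median was 0.04 with limma-voom. It was 0.40 with libraries matched by number, and 0.22 with batch as well. In batch 2, Timp1 was the member with an unadjusted p under 0.05, and DESeq2 called it (adjusted p = 0.00062).

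The members varied between batches in Control libraries as well. All 7 tested had estimates above 0 in batch 2 against batch 1, with a median log2 fold change of 1.22 against 0.04 for all genes. Timp2 rose by 1.83 ± 0.40 (log2, SE; edgeR adjusted p = 0.00757) and Mmp11 by 1.22 ± 0.30 (adjusted p = 0.0157). These 2 of 7 stand beside 11% of genes called, and 5.5% called higher. Mmp2 (2.50 ± 0.88, SE; edgeR adjusted p = 0.0981) and Mmp19 (1.25 ± 0.40; 0.0525) did not pass, and Timp3 had an estimate of 0.05 ± 0.29. Mmp19 did pass with DESeq2 (adjusted p = 0.0265) and limma-voom (0.0212), and by edgeR with total counts (0.026) or no filter on low counts (0.00482).

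Markers of several cell types also differed between the batches in Control libraries, in both directions. Of 8 theca and stroma markers tested, 6 had estimates above 0 and 2 below; Dcn (log2 fold change 2.21, edgeR adjusted p = 0.0092) and Lum (1.32, 0.028) were called higher and Acta2 (-1.39, 0.0364) lower, while Col1a1 was at -0.01. Their summed level had a median of 494 CPM in batch 1 Control libraries (269 to 766) and of 1200 CPM in batch 2 (444 to 2165). The median immune sum was 37.1 CPM in batch 1 and 119 CPM in batch 2, with Lyz2 called higher (3.11, edgeR adjusted p = 0.0188), the oocyte sum 25.8 and 61.1 CPM with 6 of 6 markers tested above 0, and the endothelial sum 33.9 and 13.5 CPM. The part of these cells in the members' batch differences was not tested.

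The calls of Timp2 and Mmp11 between batches held without each of the 11 Control libraries in turn. With Control 7 and Control 8 left out together, an alternative chosen after seeing the data, Timp2 was at 1.06 (edgeR adjusted p = 0.123) and Mmp11 at 0.85 (adjusted p = 0.0877), and neither was called. Control 7 and Control 8 are also the 2 batch 2 Control libraries with the highest Timp2, and Control 7 has the highest Mmp11. The part of cell types in this change was not tested. Without Control 9, Mmp2 (2.79, adjusted p = 0.0281) and Mmp19 (1.34, adjusted p = 0.0465) were called too, and Mmp19 was called without Control 1 (1.70, adjusted p = 0.0100).

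**Figure D4:**
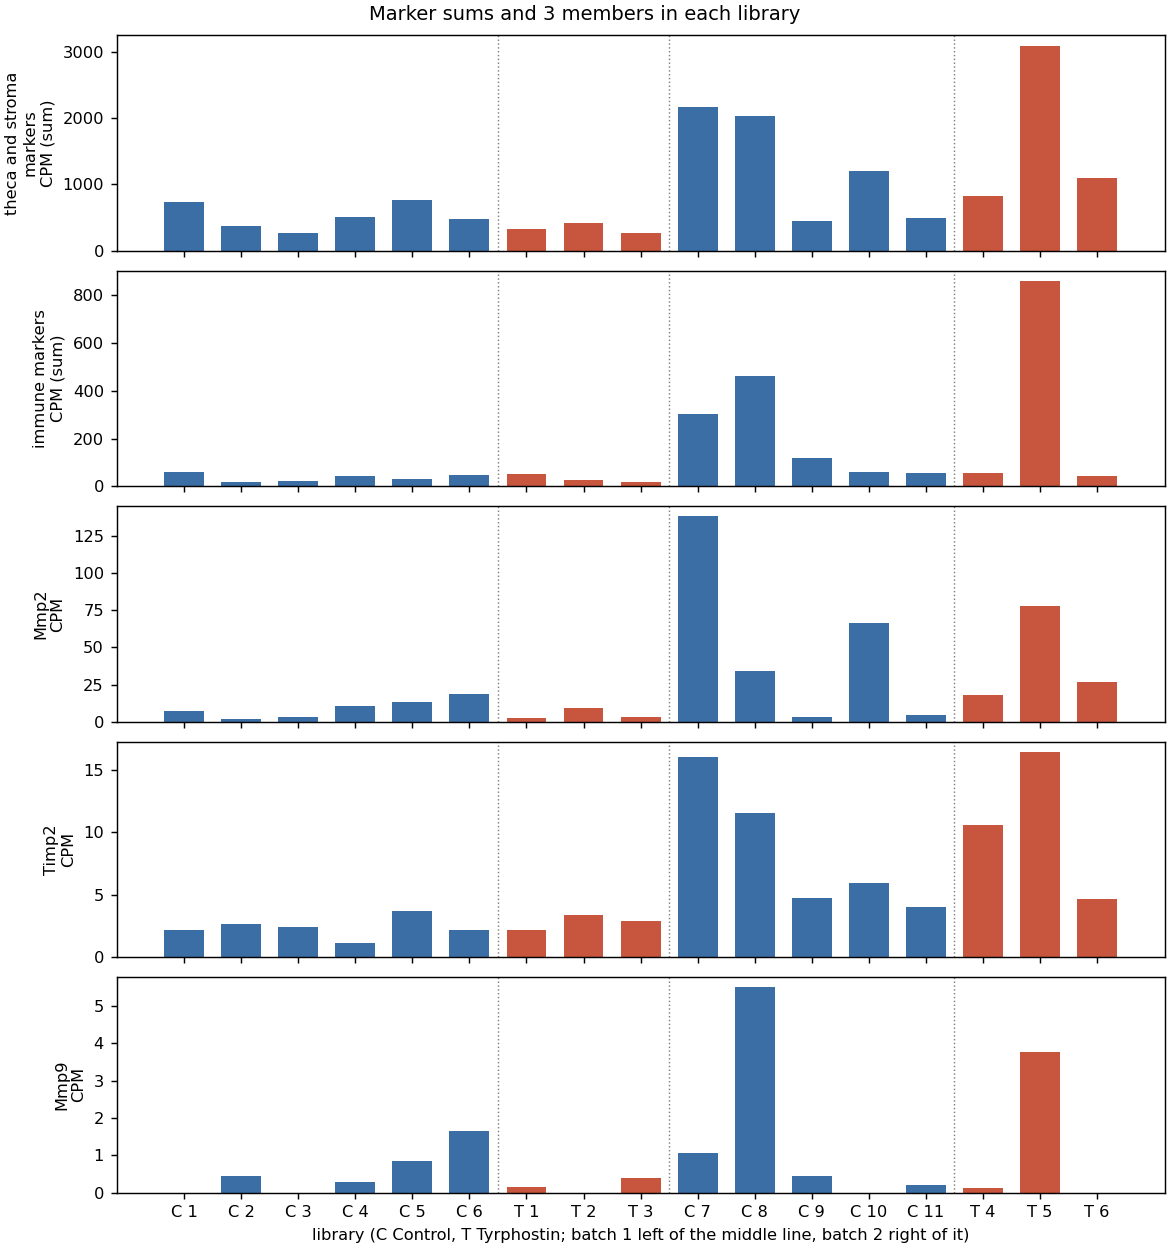
Summed theca and stroma markers, summed immune markers, and Mmp2, Timp2 and Mmp9 (bars, CPM) in each of the 17 libraries, with batch 1 left and batch 2 right of the middle dotted line; blue is Control and red Tyrphostin. Tyrphostin 5, Control 7 and Control 8 have the highest theca and stroma sums (3090, 2165 and 2029 CPM), and Mmp9 is highest in Control 8 (5.49 CPM).

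A list of 39 other genes of the system held further MMPs, inhibitors, activating convertases, an inducer, clearance receptors, binding partners and ADAM proteases. Of the 22 tested, 3 were called lower with Tyrphostin and 0 higher, beside 6.25% and 4.35% of all genes tested. Estimates were below 0 for 15 and above 0 for 7, with a median log2 fold change of -0.22. Furin, the convertase that activates Mmp11 and Mmp14, was at 28.5 ± 12.0 CPM (SD, n = 11) without and 11.7 ± 2.80 CPM (SD, n = 6) with Tyrphostin. It fell by 1.23 ± 0.24 on the log2 scale (SE; edgeR adjusted p = 0.00122), with all 6 Tyrphostin libraries below the Control median.

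Cd63, a tetraspanin that binds Timp1 at the cell surface, had 723 ± 273 CPM (SD, n = 11) without and 412 ± 73.2 CPM (SD, n = 6) with Tyrphostin. It fell by 0.81 ± 0.23 on the log2 scale (SE; edgeR adjusted p = 0.0257). Mmp16, a further membrane-bound MMP, was at 7.14 ± 3.15 CPM (SD, n = 11) against 3.59 ± 0.690 CPM (SD, n = 6), and fell by 0.95 ± 0.27 (log2, SE; edgeR adjusted p = 0.0263). Cd63 lost its call without Tyrphostin 3 or Tyrphostin 6 (adjusted p 0.0713 and 0.0605), and Mmp16 without Tyrphostin 1, 2 or 6 (0.0858, 0.0582 and 0.0542). With counts scaled by total, Mmp16 had an edgeR adjusted p of 0.0835, and with no filter on low counts 0.053, so it was called in neither. The 4 convertases all had estimates below 0, and Furin alone was called. Of 17 further MMPs, 2 passed the filter, and Timp4 did not pass it.

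Across the 17 libraries, with each batch's mean subtracted, the genes most like Timp1 in log2 CPM among 6332 compared were Serpinb2 (Pearson r = 0.95, Spearman rho = 0.96), Cav1 (0.92, 0.91), Errfi1 (0.91, 0.89), Stx6 (0.90, 0.94) and Itprip (0.90, 0.84). For Mmp19, among 6333, they were Adamts4 (r = 0.87, rho = 0.85), Hspb8 (0.86, 0.88), Angptl4 (0.84, 0.82), Rai14 (0.81, 0.78) and Zfp691 (0.80, 0.73). These are descriptions over libraries that share treatment, batch and depth. The treatment difference itself enters them, since it was not subtracted.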

How the data were processed

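Bulk RNA-seq of 17 libraries was used. The authors deposited 1 table of whole-number counts per gene symbol (25198 rows, 3576 without a count). RNA was taken on RNA-SPRI beads and libraries made by Smart-Seq2, per the labels' protocols; STAR, HTSeq and GRCm38 are named in the submitters' processing notes. Versions, annotation and strand setting are not given in the sources used here. Without molecular identifiers, PCR copies count as reads.

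Each column was tied to its sample through the name that the labels give it. Counts were filtered (filterByExpr), scaled (TMM) and tested with edgeR 4.0.16 (quasi-likelihood, robust; R 4.3.3), with batch as a term and Benjamini-Hochberg adjustment over all genes tested, at 0.05. SE is the log2 fold change divided by the square root of F. Fits were also run on data simulated with the dispersions of these data and without a batch difference, and no result here rests on them. DESeq2 1.42.0, limma 3.58.1, other scalings, filters and left-out libraries were alternatives. All 31 pairs of libraries within a group and batch differed by more than counting noise (chi-square per degree of freedom 11.8 to 84.1).

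The members, the list of other genes and the marker lists were chosen with earlier results of these data known. All members are named; listed genes are named where adjusted p was under 0.05, and otherwise counted, with a few named after their values were seen; genes most like Timp1 and Mmp19 were the 5 with the highest Pearson r among genes with an average log2 CPM of 3 or more. Gene models and transcript lengths came from GENCODE M21 and promoters from RefSeq, both on GRCm38; 6 of 9 members matched a promoter.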

Additional observations from a re-analysis of the deposited data

Results flagged for a closer look

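Among 45 groups of libraries checked (15 measures), 10 had a library whose gap to the others passed Dixon's 95% limit; chance gives about 2.25. Tyrphostin 5 stood apart from the other 5 Tyrphostin libraries for Mmp2 (77.6 CPM against 2.30 to 26.5), Mmp9 (3.77 against 0 to 0.390), Mmp11 (21.8 against 11.9 to 15.5) and Mmp19 (12.9 against 0.574 to 4.48). The same library stood apart for the theca and stroma marker sum (3090 CPM against 275 to 1090) and the immune marker sum (860 CPM against 18.5 to 56.1). The part of those cells in the member values was not tested.

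In batch 2, Control 8 stood apart for Mmp9 (5.49 CPM against 0 to 1.05 in the other Control libraries) and Control 7 for Timp3 (722 CPM against 260 to 351). In batch 1, Control 6 had the lowest total (1820545 counts against 3807300 to 4834875), and Control 4 the highest granulosa marker sum (81222 CPM against 67847 to 72026).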

How the results depend on the processing

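Timp1 stayed lower and called over all libraries in each of 11 alternatives and with each of the 17 libraries left out in turn. The count of genes called there (1018) was 619 with no batch term, 1693 with the replicate block and 636 with the replicate block and batch. The replicate block matches libraries by number, so it sets Tyrphostin 4 to 6 of batch 2 against Control 4 to 6 of batch 1. Leaving out a library gave 708 to 1314. Members called there (1) were 2 with DESeq2, limma-voom, the replicate block and batch, or without Tyrphostin 5, Control 7 and Control 8, and 3 (Timp1, Timp3 and Mmp11) with the replicate block; 1 to 2 with a library left out. In batch 1 (634 genes, 2 members), summing Control libraries by set gave 239 and 1, and leaving out a library 394 (without Tyrphostin 2) to 687 genes and 0 to 3 members. In batch 2 (61 and 0), DESeq2 gave 303 and 1, no filter 222 and 1, and leaving out those 3 libraries 103 genes; leaving out single libraries gave 11 to 221 genes, 221 without Control 7, and 0 to 1 members. The interaction (0) had 79 genes with no filter. Between Control batches (1004 and 2), no filter gave 4 members, leaving out Control 7 and Control 8 gave 0, and leaving out a library 660 (without Control 3) to 1063 genes and 2 to 4 members. Apart from the counts that fewer libraries or more genes tested bring, the cause was not tested.

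Same-numbered Tyrphostin and Control libraries had correlations of 0.32, 0.08, 0.05, 0.10, 0.03 and 0.11. Among Control 1 to 6, 2 of 6 correlated best with their own number. Tyrphostin 4 to 6 and Control 4 to 6 are of different batches, so those numbers do not pair samples within a batch. For Tyrphostin 1 to 3, these correlations are too few to decide whether the numbers pair the samples. With the replicate block in place of batch, the estimate also holds the difference between batches. In that fit Mmp11 was called higher (log2 fold change 0.68, edgeR adjusted p = 0.0396) and Timp3 lower (-0.62, 0.0457). With the replicate block and batch, Furin (adjusted p = 0.066), Cd63 (0.0857) and Mmp16 (0.434) were not called, and Timp3 was (0.016). Scaling by total counts moved the median of all genes by 0.15 (log2) and the called genes to 396 lower and 715 higher, 35.6% lower in place of 58.9%; in batch 1 to 459 higher and 264 lower, in batch 2 to 26 and 29, and between Control batches to 907 and 281.

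Estimates that changed sign, none of them called, were Mmp2 over all libraries with limma-voom (0.088), the replicate block (0.89) and the replicate block and batch (0.26), and in batch 1 with the replicate block (0.27); Mmp11 over all libraries with no batch term (-0.029); in batch 2 Mmp14 with total counts (0.087) and limma-voom (0.0061), Timp3 with total counts (0.038), sets summed (0.062) and without the 3 libraries (0.079), and Mmp2 with limma-voom (0.42) and sets summed (0.17); the Timp2 interaction with limma-voom (-0.0010) and no filter (-0.024); and Timp3 between Control batches without Control 7 and Control 8 (-0.33). With a library left out, ranges crossing 0 were -0.037 to 0.20 for Mmp11 over all libraries; -1.16 to 0.53 for Mmp2, -0.23 to 0.086 for Mmp14, -0.17 to 0.65 for Timp2 and -0.34 to 0.21 for Timp3 in batch 2; -0.31 to 1.35 for the Mmp2 and -0.38 to 0.41 for the Timp2 interaction; and -0.27 to 0.22 for Timp3 between Control batches. Depth limits Mmp9 and Mmp15, where 3 counts are worth 0.336 to 1.64 CPM; this covers counting error only.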
